A study of Mus musculus with 4 samples.

Results

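The complement genes described here are 33 genes of the complement system, found in the deposited array annotation by their symbols among 21260 gene symbols in all. They are covered by 47 probes in 56 spots, and 10 of the genes have more than 1 probe. Liver RNA of male C57Bl/6 mice aged 3 months was hybridised to 4 Agilent arrays, each with 1 sample of a Wrn mutant in Cy5 and 1 wild-type sample in Cy3. The mutants carry a mutant form of Wrn, a RecQ-type DNA helicase, and their drinking water held 0.4% vitamin C after weaning, while the wild-type mice were untreated. The labels call the 4 samples of each group biological replicates and do not name the Wrn allele. No array had the dyes exchanged, and mutants without vitamin C, or wild-type mice given it, were not analysed here. Array 1 detected fewer probes than the others. Of all non-control probes, 82.5% in its mutant channel and 84.2% in its wild-type channel were well above background. On arrays 2 to 4 the share was between 94.4% and 96.1% in a channel. Genotype, vitamin C and dye therefore cannot be told apart in any value below. In RNA from whole liver, fewer cells of a type and less RNA per cell cannot be told apart either.

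Complement is a cascade of plasma proteins, most of them made by hepatocytes, that marks and punctures microbes and damaged cells. The classical pathway starts with C1q on antibody or on dying cells, and the lectin pathway starts with mannose-binding lectins or ficolins on sugars; both cut C4 and C2 to make a C3 convertase. The alternative pathway makes its own convertase from C3 and factor B, which factor D cuts and properdin holds together. All pathways lead to cutting of C5 and to the membrane attack complex of C5b, C6, C7, C8 and C9, and host cells are shielded by soluble and membrane regulators.

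The probes are 60-base DNA oligonucleotides. Those printed here belong to results in which 2 probes are set against each other or in which the probes of a gene differ, and they were chosen after the values were seen. C2 and factor B are related serine proteases encoded side by side, and a probe of each is given. The pair for C3 differed in mean ratio, and the last belongs to the serine protease gene Masp1, whose probes differed too.
C2 A_52_P428699: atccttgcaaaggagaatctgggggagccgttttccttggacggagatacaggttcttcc
Cfb A_51_P413866: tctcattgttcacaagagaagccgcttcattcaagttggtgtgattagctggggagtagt
C3 A_51_P110301: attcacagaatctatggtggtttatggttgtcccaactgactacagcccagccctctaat
C3 A_52_P133594: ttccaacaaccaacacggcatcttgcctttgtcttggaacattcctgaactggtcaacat
Masp1 A_52_P216226: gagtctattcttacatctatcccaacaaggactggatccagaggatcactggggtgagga

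Values below, unless named as a channel level or log2 intensity, are log2 ratios of mutant over wild type, as deposited by the authors for each array, with the SD over the 4 arrays. A probe was called higher or lower at a limma p-value under 0.05 after Benjamini-Hochberg adjustment over 39080 probes. All 47 complement probes passed the filter on dim probes, 43 of them were well above background in all 8 channels, and 0 were saturated. C2, C4b, C6, C8a, C8b, C9, Mbl1 and Masp1 had probes called lower in the mutants, and Cfd, Cd59a and C3ar1 had probes called higher. This came to 10 probes lower, or 21.3% of the 47, beside 6.27% of all probes tested, and 3 probes higher, or 6.38%, beside 5.97%. The other 34 probes did not pass, among them further probes of Masp1, Cd59a and C3ar1. With a mean over each gene's probes, 1 gene was higher and 7 were lower. The median ratio of the complement probes was -0.10 and that of all probes was 0.00. The ratio was below 0 on all 4 arrays for 16 of the complement probes, beside 18.8% of all probes, and above 0 on all 4 for 7, beside 21.6%. All mutant channels lay below all wild-type channels for 9 probes, beside 4.2% of all probes, and above them for 3, beside 2.94%. Brightness set the complement probes apart from most others, since 35 of the 47 were in the brightest 25% of the kept probes.

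**Figure D1:**
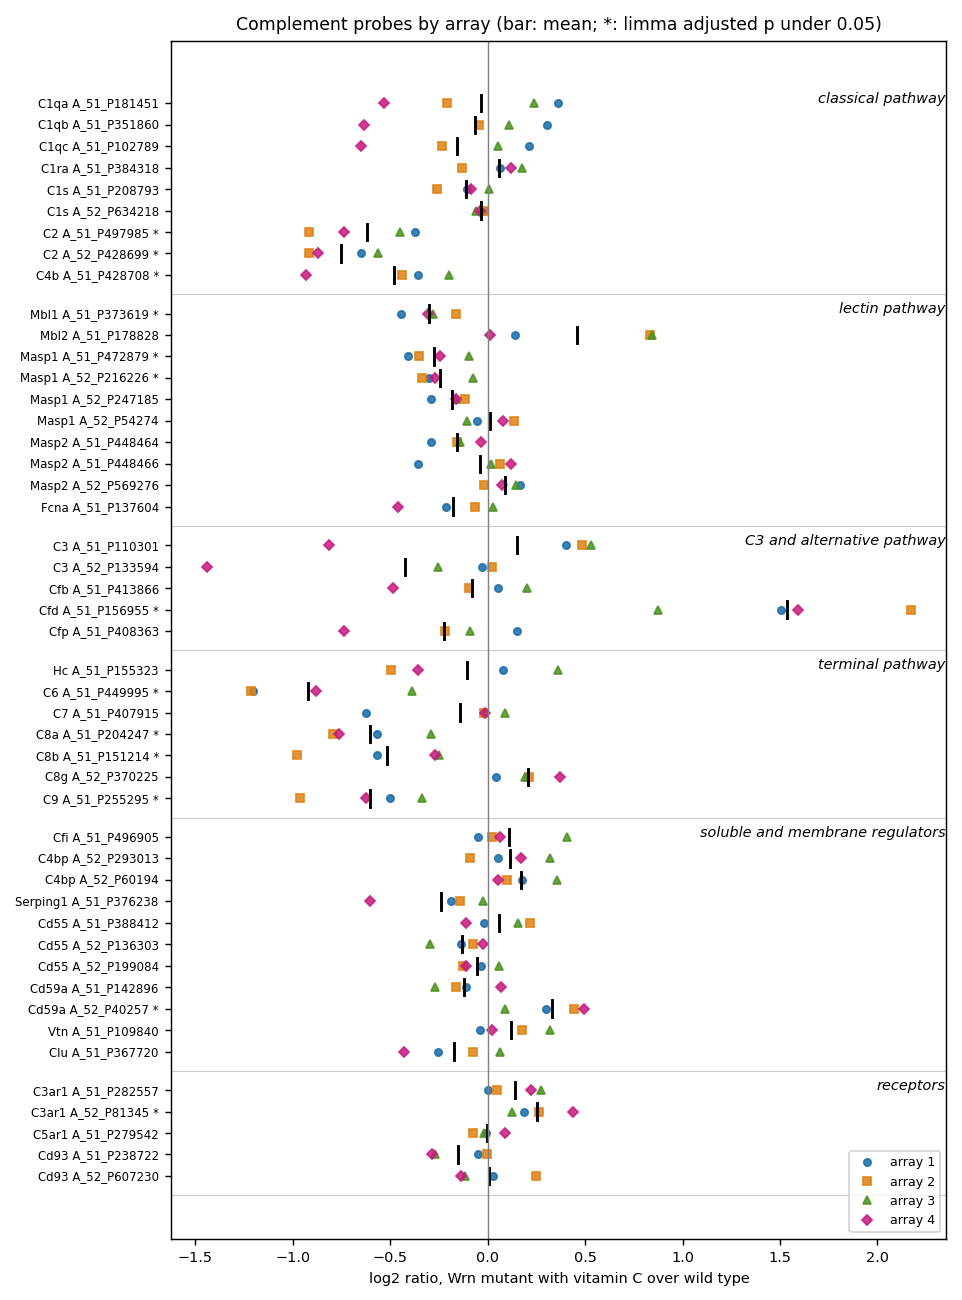
Each row is 1 complement probe, grouped by role, and the horizontal axis is the log2 ratio of mutant over wild type. Coloured points are the 4 arrays, the black bar is their mean, and an asterisk marks a limma adjusted p under 0.05. The C2, C6, C8a, C8b and C9 points all lie below 0, the Cfd points all lie above 0, and the points of array 4 stand to the left for C1qa, C1qb, C1qc, C3, Cfb and Cfp.

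The scaling and the number of arrays bear on all of these calls. Centring each array on its median in place of the loess used by the authors gave 13 complement probes higher, beside 8.46% of all probes, and 6 lower, beside 7.18%. Of the 13 calls under loess, 7 held and all 13 kept their sign. Loess removes a trend with brightness, and centring raised the complement probes by a median of 0.10 relative to loess, against 0.15 for the brightest 10% of all probes. Without array 2, limma called 0 complement probes and 12 of all 39080 (0.0307%). An unadjusted p under 0.05 was then reached by 18 of the 47 complement probes, beside 9881 of all 39080. Without array 1, 3 or 4, limma called 5, 9 or 4 complement probes, beside 3.2%, 4.04% or 1.78% of all probes.

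**Figure D2:**
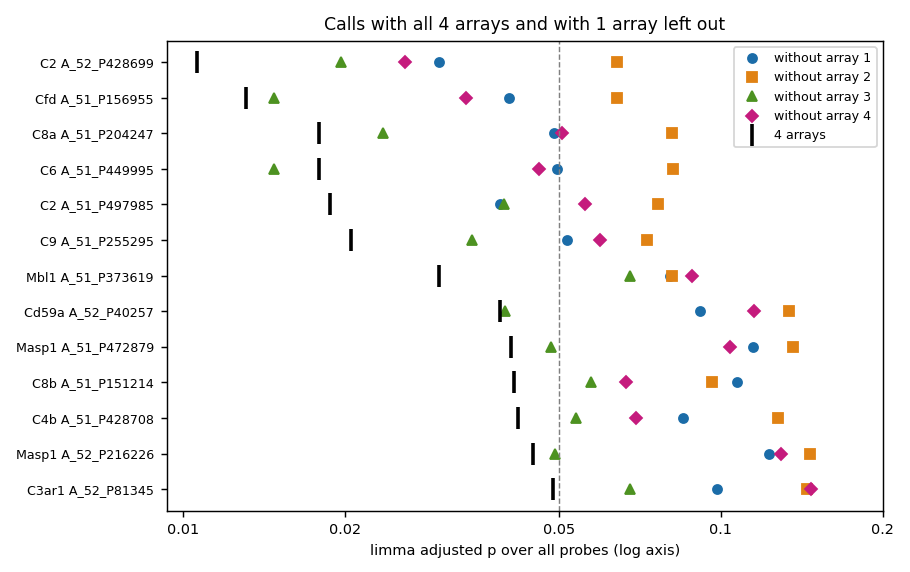
The 13 called complement probes are listed by row, with the limma adjusted p on a log axis. The black bar is the fit with 4 arrays, the coloured points leave out 1 array each, and the dashed line is 0.05. The orange squares, without array 2, lie to the right of the line in every row, and the C2 probe A_52_P428699, C6 and Cfd stay to its left without each of the other arrays.

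In the classical pathway, the convertase genes C2 and C4b were lower in the mutants and the C1 genes did not pass the test. Of the 9 probes of this group, 3 were lower, 0 were higher and 6 did not pass. Among all probes, 6.27% were lower and 5.97% higher. With median centring in place of loess, 2 were lower, both of C2, and 1 was higher, that of C1ra. The shares of all probes under centring were 7.18% lower and 8.46% higher. C2 encodes the serine protease of the classical and lectin C3 convertase. Its probe A_52_P428699 gave ratios of -0.65, -0.92, -0.56 and -0.87 on arrays 1 to 4. The mean was -0.75 (SD 0.17, n = 4, limma adjusted p = 0.0106), a level 1.68-fold higher in wild type. The second C2 probe, A_51_P497985, gave -0.37, -0.92, -0.45 and -0.74, with a mean of -0.62 (SD 0.25, n = 4, limma adjusted p = 0.0188). Both probes were below 0 on all 4 arrays and lowest on array 2. For A_51_P497985 the mutant log2 intensity, from 14.80 to 15.42, did not overlap that of wild type, from 15.64 to 16.04. For A_52_P428699 the groups overlapped, because the highest mutant channel, 13.03 on array 3, exceeded the lowest wild-type channel, 12.98 on array 1. Without array 2 the adjusted p was 0.0641 and 0.0764 for A_52_P428699 and A_51_P497985, and the latter also missed the threshold without array 4, at 0.0559. Centring moved A_51_P497985 to -0.27, with an adjusted p of 0.0413 in limma, and A_52_P428699 to -0.66.

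C4b encodes the C4 protein, whose large fragment binds to the target surface. Its probe gave -0.36, -0.44, -0.20 and -0.93 on arrays 1 to 4, with a mean of -0.48 (SD 0.32, n = 4, limma adjusted p = 0.042). All 4 ratios were below 0, and array 4 held the lowest. The mutant channels lay between 15.60 and 15.70 and the wild-type channels between 15.90 and 16.62, so the groups did not overlap. The adjusted p was between 0.0539 and 0.128 with any 1 array left out, and centring in place of loess moved the mean to -0.09. C4b also has a near-identical neighbour, C4a, and cross-hybridisation of its probe was not tested.

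The recognition subunits C1qa, C1qb and C1qc, in liver mainly products of macrophages, had mean ratios of -0.04 (SD 0.41), -0.07 (SD 0.40) and -0.16 (SD 0.38). C1qa gave 0.36, -0.21, 0.24 and -0.53 on arrays 1 to 4. C1qb gave 0.30, -0.05, 0.11 and -0.63. C1qc gave 0.21, -0.24, 0.05 and -0.65. All 3 genes were above 0 on arrays 1 and 3, below 0 on arrays 2 and 4, and lowest on array 4, and they are encoded next to each other on chromosome 4. The 14 probes of Kupffer cell and macrophage markers had medians of 0.17, -0.03, 0.14 and -0.30 on arrays 1 to 4, and all 14 were lowest on array 4, beside 25.3% of all probes. None of these 14 passed the limma test, and their part in the C1q values was not tested. The C1 protease genes C1ra, at 0.06 (SD 0.13), and C1s, at -0.11 (SD 0.11) and -0.04 (SD 0.02) with its 2 probes, did not pass. Under centring C1ra passed, at 0.37 with an adjusted p of 0.0158 in limma.

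In the lectin pathway, Mbl1 and Masp1 were slightly lower in the mutants, and Mbl2, Masp2 and Fcna did not pass the test. The 10 probes of this group had 3 calls lower, 0 higher and 7 not past the threshold. Among all probes, 6.27% were lower and 5.97% higher. Under centring the count was 0 lower and 2 higher, beside 7.18% and 8.46% of all probes. The 2 higher were Mbl2 at 0.91 (limma adjusted p = 0.0201) and the Masp2 probe A_52_P569276 at 0.20 (limma adjusted p = 0.0413). Mbl1 encodes mannose-binding lectin A and gave -0.45, -0.16, -0.28 and -0.31, with a mean of -0.30 (SD 0.12, n = 4, limma adjusted p = 0.0299). Mbl2 encodes mannose-binding lectin C and gave 0.14, 0.83, 0.84 and 0.01, with a mean of 0.46 (SD 0.44, n = 4, limma adjusted p = 0.0923). Mbl1 was below 0 and Mbl2 above 0 on all 4 arrays, although Mbl2 was near 0 on array 4. The ratio of Mbl1 was lower than that of Mbl2 on 4 of 4 arrays, by a mean difference of -0.76 (SD 0.37). An exact two-sided sign-flip permutation test gave p = 0.125, the smallest that 4 arrays allow, also after adjustment over the 4 probe pairs compared. These 4 pairs were chosen after their values were seen. Mutant and wild-type channels overlapped for both genes, and the Mbl1 call was lost without any 1 array, with adjusted p from 0.0677 to 0.0884, and under centring, at -0.14.

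Masp1 encodes a protease that starts the lectin pathway, and its 4 probes target different transcript records. A_51_P472879 gave -0.41, -0.35, -0.10 and -0.25, with a mean of -0.28 (SD 0.14, n = 4, limma adjusted p = 0.0407). A_52_P216226 gave -0.30, -0.34, -0.08 and -0.27, with a mean of -0.25 (SD 0.12, n = 4, limma adjusted p = 0.0448). The smallest decrease of both was on array 3, and the groups overlapped for the first and not for the second. A_52_P247185 had a mean of -0.18 (SD 0.08, adjusted p = 0.0646 in limma), and A_52_P54274 had 0.01 (SD 0.11). The Masp1 calls were lost without array 1, 2 or 4, with adjusted p from 0.104 to 0.146, and under centring, where the means were -0.06 and -0.21. The mean over all Masp1 probes was -0.17, with an adjusted p of 0.0629 in limma. Masp2, the protease that cuts C4 and C2, had means of -0.16, -0.04 and 0.09 with its 3 probes, and the ficolin gene Fcna had -0.18 (SD 0.21).

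In the alternative pathway, Cfd was higher in the mutants, while C3, Cfb and Cfp did not pass the test. Of the 5 probes, 1 was higher, 0 were lower and 4 did not pass, beside 5.97% higher and 6.27% lower among all probes. Under centring 3 were higher and 0 lower, beside 8.46% and 7.18% of all probes, and C3 A_51_P110301 and Cfb passed too. Cfd encodes factor D, the protease that cuts factor B, and is also known as adipsin, a product of fat cells. It gave ratios of 1.5, 2.17, 0.87 and 1.59 on arrays 1 to 4. The mean of 1.54 (SD 0.53, n = 4, limma adjusted p = 0.0131) was a 2.9-fold higher level in the mutants and the sixth highest of 39080 probes. The mutant channels read 9.65, 10.78, 9.11 and 9.33 on the log2 scale and the wild-type channels 8.14, 8.61, 8.24 and 7.74. The groups did not overlap, and array 2 held both the highest mutant and the highest wild-type level. Cfd kept its call without array 1, 3 or 4 and lost it without array 2, where the mean was 1.32 with an adjusted p of 0.0641.

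Since Cfd is best known from fat, the markers of adipocytes are given beside it. Of 12 probes for 8 genes, 1 was higher, 0 were lower and 11 did not pass, beside 5.97% higher among all probes. The hormone genes Adipoq at -0.05, Retn at -0.07 and -0.10, and Lep at 0.01 did not pass, nor did the lipid droplet gene Plin1 at 0.06 and the lipase gene Lipe at -0.18 and -0.12. Of the 3 probes of the fatty acid carrier Fabp4, 1 was higher at 0.21 (SD 0.07, n = 4, limma adjusted p = 0.0459), and the others were at -0.09 and 0.12. The fat storage gene Cidec gave 0.05, 0.74, -0.43 and 0.33, and its regulator Pparg gave 0.08, 0.62, -0.37 and 0.33. Both had their highest ratio on array 2 and their lowest on array 3, as Cfd did, and neither passed the test, with means of 0.17 (SD 0.49) and 0.16 (SD 0.42). Cidec and Pparg were picked for values per array after these were seen. The list as a whole had another order. Its 12 probes had medians of -0.02, -0.08, 0.02 and -0.05 on arrays 1 to 4, lowest on array 2 and highest on array 3. The part of the adipocyte markers in the Cfd values was not tested.

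C3 encodes the central protein of the cascade. Its probe A_51_P110301, spotted 10 times on each array, gave 0.40, 0.48, 0.53 and -0.81 on arrays 1 to 4. The mean was 0.15 (SD 0.64, n = 4, limma adjusted p = 0.67). Arrays 1 to 3 were above 0 and array 4 was below, and the 10 spots of array 4 all lay between -0.88 and -0.75. On array 4 the mutant channel read 17.76 and the wild-type channel 18.58, while the other arrays read from 18.27 to 18.35 and from 17.79 to 17.88. Without array 4 the mean was 0.47, with an adjusted p of 0.0344 in limma. The other C3 probe, A_52_P133594, gave -0.03, 0.02, -0.25 and -1.44, with a mean of -0.43 (SD 0.69, n = 4, limma adjusted p = 0.249). It was also lowest on array 4, but near or below 0 on the other arrays. The difference between the probes was 0.58 (SD 0.16) and above 0 on 4 of 4 arrays (exact two-sided sign-flip permutation p = 0.125). Centring in place of loess moved A_51_P110301 to 0.82, with an adjusted p of 0.0378 in limma.

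Cfb encodes factor B and gave 0.06, -0.10, 0.20 and -0.49, with a mean of -0.08 (SD 0.29, n = 4, limma adjusted p = 0.638). It was above 0 on arrays 1 and 3 and below 0 on arrays 2 and 4. Centring turned its direction, to 0.49 with an adjusted p of 0.0147 in limma. C2, its neighbour on chromosome 17 and its counterpart in the classical pathway, had a lower ratio under loess on 4 of 4 arrays, by a mean of -0.67 (SD 0.20; exact two-sided sign-flip permutation p = 0.125). Cfp encodes properdin, which comes from blood cells and macrophages, and gave 0.15, -0.22, -0.09 and -0.74. Its mean was -0.23 (SD 0.38), and array 4 was again the lowest.

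**Figure D3:**
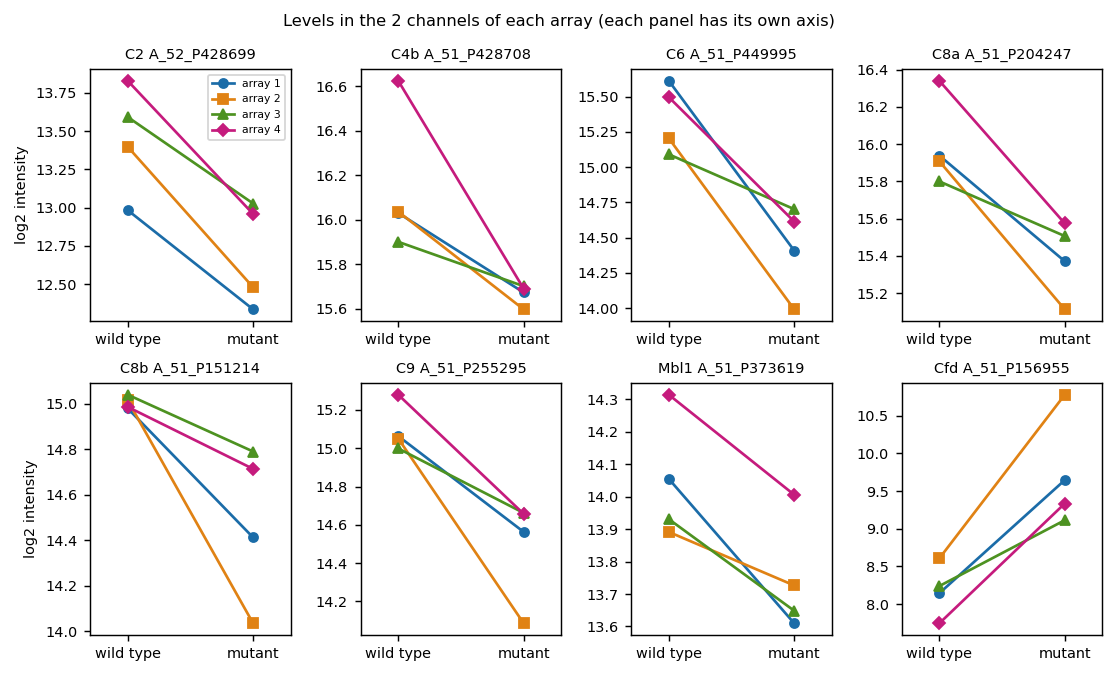
Each panel shows 1 probe, with log2 intensity on its own vertical axis and a line joining the wild-type and the mutant channel of an array. All lines fall for C2, C4b, C6, C8a, C8b, C9 and Mbl1 and rise for Cfd. The wild-type channels of C8b lie within 0.06 of each other and its mutant channels within 0.76.

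In the terminal pathway, C6, C8a, C8b and C9 were lower in the mutants, and C5, C7 and C8g did not pass the test. The count was 4 lower, 0 higher and 3 not past for 7 probes, beside 6.27% lower among all probes. Under centring 3 were lower, with C6 at -0.65, C9 at -0.35 and C8a at -0.24 (limma adjusted p = 0.0498), and 2 were higher, with C8g and Hc. The shares of all probes under centring were 7.18% lower and 8.46% higher. The median ratio of the 7 was -0.52, beside 0.00 for all probes. C6, which binds C5b to start the complex, gave -1.21, -1.21, -0.39 and -0.88. Its mean of -0.92 (SD 0.39, n = 4, limma adjusted p = 0.0179) was a 1.9-fold higher level in wild type. C8a, the chain of C8 that enters the membrane, gave -0.57, -0.79, -0.29 and -0.77, with a mean of -0.61 (SD 0.23, n = 4, limma adjusted p = 0.0179). C6 and C8a were below 0 on all arrays and least so on array 3. C8b, the chain of C8 that binds the nascent complex, gave -0.57, -0.98, -0.25 and -0.27, with a mean of -0.52 (SD 0.34, n = 4, limma adjusted p = 0.0412). C9, which forms the ring of the pore, gave -0.50, -0.96, -0.34 and -0.62, with a mean of -0.61 (SD 0.27, n = 4, limma adjusted p = 0.0205). In all 4 genes the mutant channels lay below every wild-type channel, as they did for 4.2% of all probes, and array 3 had the smallest decrease. Without array 2, the adjusted p was 0.0815 for C6, 0.081 for C8a, 0.0963 for C8b and 0.0729 for C9. C8b lost its call without any 1 array and under centring, at -0.27 with an adjusted p of 0.170. C9 lost it also without array 1, at 0.0516, and without array 4, at 0.0595, and C8a without array 4, at 0.0506.

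The remaining C8 chain had ratios of the other sign. C8g, which encodes this small lipocalin-type chain, gave 0.04, 0.21, 0.19 and 0.37, with a mean of 0.20 (SD 0.13, n = 4, limma adjusted p = 0.0786). Centring moved the mean to 0.67, with an adjusted p of 0.013 in limma, and Agilent's processed signals moved it to 0.04. Under loess it was above 0 on all arrays, and the ratio of C8a was lower than that of C8g on 4 of 4 arrays, by -0.81 (SD 0.31; exact two-sided sign-flip permutation p = 0.125). C8a and C8b are neighbours on chromosome 4. Hc, the gene of C5, gave 0.08, -0.50, 0.36 and -0.36, with a mean of -0.10 (SD 0.40, n = 4, limma adjusted p = 0.638). The Hc ratios were above 0 on arrays 1 and 3 and below 0 on arrays 2 and 4, and centring turned the mean to 0.45, with an adjusted p of 0.025 in limma. C7 lies 1 gene away from C6 on chromosome 15 and gave -0.63, -0.02, 0.09 and -0.02, with a mean of -0.14 (SD 0.33). The C7 probe was well above background on 3 arrays in each channel.

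The sequence before the start of each of the 4 lowered terminal genes is given because these genes were lower together. Each line holds 250 bases upstream of the RefSeq start on build GRCm38.p6, on the strand of the gene, with motif matches in capitals.
C6, chr15:4726960-4727209, plus strand: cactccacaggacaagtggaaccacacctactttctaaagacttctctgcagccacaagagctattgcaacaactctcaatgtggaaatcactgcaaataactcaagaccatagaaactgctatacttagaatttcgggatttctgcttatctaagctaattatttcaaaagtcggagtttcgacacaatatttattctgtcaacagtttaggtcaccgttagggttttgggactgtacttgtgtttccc
C8a, chr4:104876399-104876648, minus strand: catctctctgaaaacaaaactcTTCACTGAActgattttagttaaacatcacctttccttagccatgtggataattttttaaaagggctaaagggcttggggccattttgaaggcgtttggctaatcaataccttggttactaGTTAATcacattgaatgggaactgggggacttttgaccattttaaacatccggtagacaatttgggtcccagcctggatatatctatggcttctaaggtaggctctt
C8b, chr4:104766067-104766316, plus strand: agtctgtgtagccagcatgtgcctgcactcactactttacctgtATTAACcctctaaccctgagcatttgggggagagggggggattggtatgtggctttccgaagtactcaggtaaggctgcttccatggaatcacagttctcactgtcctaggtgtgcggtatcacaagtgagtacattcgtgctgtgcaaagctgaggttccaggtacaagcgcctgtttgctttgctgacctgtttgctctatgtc
C9, chr15:6445096-6445345, plus strand: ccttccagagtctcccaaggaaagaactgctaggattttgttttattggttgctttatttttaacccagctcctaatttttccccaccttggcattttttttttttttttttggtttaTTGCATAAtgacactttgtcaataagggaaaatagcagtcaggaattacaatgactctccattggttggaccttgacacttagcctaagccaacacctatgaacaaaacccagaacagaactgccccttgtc

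The capitals in the 4 windows mark 4 matches to 7 letter patterns of liver and inflammatory factors that were searched on both strands. C8a holds TTCACTGAA, a match to TTCNNNGAA, the GAS element of STAT factors, which 7.02% of the 32851 RefSeq windows of this length hold. C8a also holds GTTAAT, a short HNF1 pattern, and C8b holds it on the reverse strand as ATTAAC. This pattern is in 6.43% of all windows and in 8 of the 24 complement genes with a window, which are C1ra, Hc, C7, C8a, C8b, Cfp, C4bp and Vtn. Here and below, a gene counts if any of its windows holds a pattern, while the shares are of single windows. The gene counts and window shares are therefore not like for like. C9 holds TTGCATAA, a match to TTGCNNAA of C/EBP, found in 9.56% of all windows, and C1s and C3 hold that pattern too. The C6 window has no match to the patterns searched. For the type II IL-6 response element, CTGGGAA, the shares were 4 of 24 complement genes and 9.1% of all windows, and for the TATA box, TATAAA, 4 of 24 and 12.4%. The HNF4 pattern CAAAGTCCA, in 0.384% of all windows, and the FOXA pattern TGTTTAC, in 3.17%, were in 0 of the 24. A match describes the letters and not binding.

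Among the regulators, Cd59a was higher with 1 of its 2 probes and no other gene passed. The 11 probes of 7 genes had 1 call higher, 0 lower and 10 not past, beside 5.97% higher and 6.27% lower among all probes. Under centring 5 were higher, those of Cd59a, C4bp, Vtn, Cfi and Clu, and 1 was lower, that of Cd55. The shares of all probes under centring were 8.46% higher and 7.18% lower. Cd59a encodes the membrane protein that blocks the insertion of C9. Its probe A_52_P40257 gave 0.30, 0.44, 0.09 and 0.49, with a mean of 0.33 (SD 0.18, n = 4, limma adjusted p = 0.0388), and its groups did not overlap. The other, A_51_P142896, gave -0.11, -0.16, -0.27 and 0.07, with a mean of -0.12 (SD 0.14, n = 4, limma adjusted p = 0.254). The probes thus had opposite signs on arrays 1, 2 and 3, and their mean was 0.11 with an adjusted p of 0.319 in limma. The call of A_52_P40257 was lost without array 1, 2 or 4, with adjusted p from 0.0912 to 0.134.

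The soluble regulators did not pass the test under loess. Serping1, the C1 inhibitor, gave -0.19, -0.14, -0.02 and -0.61, with a mean of -0.24 (SD 0.25, n = 4, limma adjusted p = 0.136). It was below 0 on all arrays and lowest on array 4, and centring turned its mean to 0.22 with no call. C4bp, a cofactor for cutting C4b, had means of 0.11 (SD 0.18) and 0.17 (SD 0.13) with its 2 probes, and Cfi, the protease that cuts C3b and C4b, had 0.11 (SD 0.20). Vtn and Clu, which encode the terminal complex inhibitors vitronectin and clusterin, had 0.12 (SD 0.16) and -0.17 (SD 0.21). Under centring, C4bp A_52_P60194 was higher at 0.72 (limma adjusted p = 0.00565), Vtn at 0.73 (0.0108), Cfi at 0.61 (0.0129) and Clu at 0.39 (0.0381). Cd55, which speeds the decay of the convertases, had means of 0.06, -0.13 and -0.05 with its 3 probes. Under centring the second of these, A_52_P136303, was lower at -0.24 (limma adjusted p = 0.0493). This dim probe was well above background on 3 arrays in the mutant channel and on 4 in wild type. With another background correction, normexp, it gave -0.08 (limma adjusted p = 0.268).

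Of the 5 receptor probes, 1 of C3ar1 was higher, 0 were lower and 4 did not pass, and under centring 0 passed. Among all probes, 5.97% were higher and 6.27% lower, and under centring 8.46% and 7.18%. C3ar1 encodes the receptor of the fragment C3a. Its probe A_52_P81345 gave 0.19, 0.26, 0.12 and 0.44, with a mean of 0.25 (SD 0.14, n = 4, limma adjusted p = 0.0488). The groups did not overlap for this dim probe, which was well above background on 3 arrays in each channel. The brighter C3ar1 probe gave 0.00, 0.05, 0.28 and 0.22, with a mean of 0.14 (SD 0.13, n = 4, limma adjusted p = 0.183). The call was lost without any 1 array, with adjusted p from 0.0677 to 0.147, and with another background correction, normexp, at 0.18 with 0.0668. C5ar1, the receptor of C5a, had a mean of 0.00 (SD 0.07), and Cd93, once described as a C1q receptor, had -0.15 (SD 0.15) and 0.00 (SD 0.18).

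Array 4 stood apart for many of these genes in its wild-type level, and less so in its ratio. Its wild-type channel was the highest of the 4 for 26 of the 47 complement probes, beside 21.6% of all probes. Array 1 held the highest wild-type level for 15, beside 44.7% of all probes. The ratio was lowest on array 4 for 16, beside 25.3%, and on array 2 for 14, beside 23.7%. In the wild-type channel of array 4, 11 of the 12 probes of acute phase genes were highest. Their median ratios were -0.52, -0.76, -0.13 and -2.34 on arrays 1 to 4. In the mutants 5 of the 12 were lower, beside 6.27% of all probes. Under centring 4 were lower, beside 7.18%, and 1 was higher, beside 8.46%. The largest decreases were both Saa1 probes at -2.73 and -2.49 and Saa3 at -2.66. Lcn2, a strongly inducible acute phase gene, read 8.65, 9.16, 8.82 and 15.55 in the wild-type channels and 8.25, 8.25, 8.70 and 12.34 in the mutant channels. It was thus highest on array 4 in both groups. Without array 4, 2 complement probes were higher, those of C3 and Cfd, beside 0.752% of all probes, and 2 were lower, those of C6 and C2, beside 1.03%. The part of the acute phase genes in the complement values was not tested. The 4 arrays shared 1 slide and 1 scan time.

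**Figure D4:**
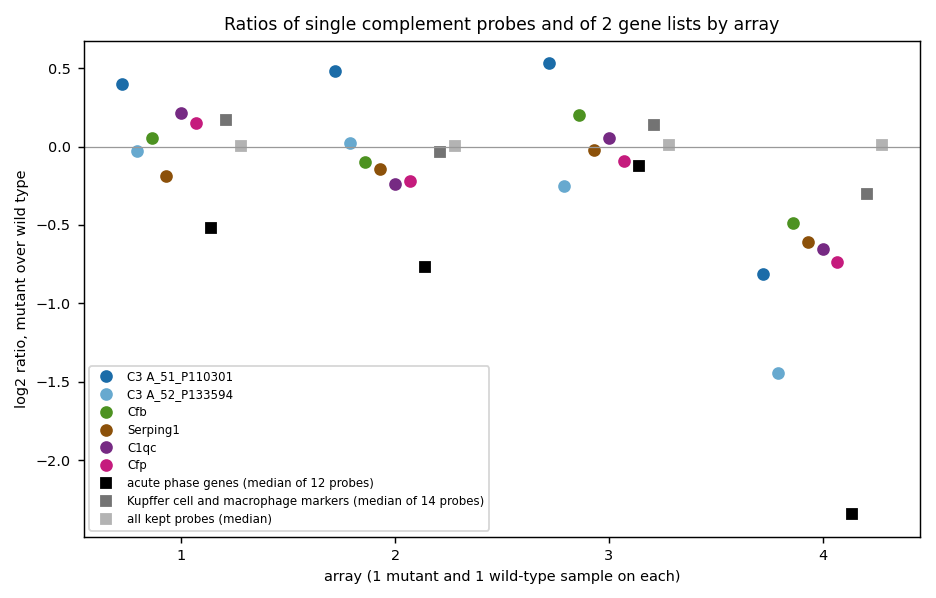
Log2 ratios of mutant over wild type are plotted against the array, as circles for single complement probes and squares for the medians of the acute phase genes, of the Kupffer cell and macrophage markers and of all kept probes. On array 4 every complement probe drawn lies below its own values on the other arrays, with C3 A_52_P133594 at -1.44, while the median of all probes stays near 0. The probes drawn are a selection from the 16 of 47 complement probes with their lowest ratio on array 4. Array 2 held the lowest ratio for 14 others.

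The spread within the groups varied from gene to gene. C4b ranged over 0.10 in the mutant channels and 0.72 in the wild-type channels, Cfb over 0.13 and 0.66, and Serping1 over 0.15 and 0.62. These 3 genes were nearly level in the mutants, and their highest value was the wild-type channel of array 4. Ranges were reversed for C8b, with 0.76 in the mutants and 0.06 in wild type, and for Cfd, with 1.67 and 0.86. The mutant range was the smaller for 28 of the 47 probes. The share over all probes was not computed, so this count is not read as a trait of the complement genes. No test of the spread was made.

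**Figure D5:**
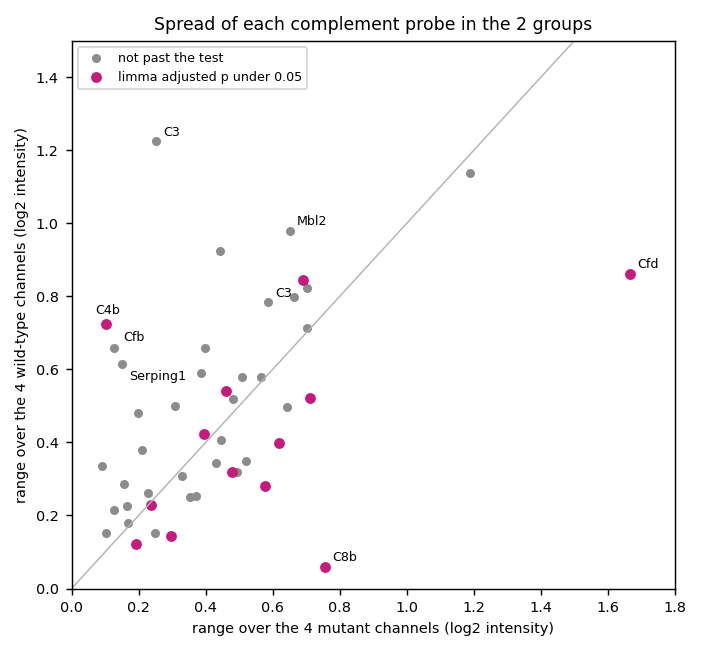
Each point is 1 complement probe, with the range over the 4 mutant channels on the horizontal axis and over the 4 wild-type channels on the vertical axis, both in log2 intensity. The line marks equal ranges and coloured points are past the limma test. C4b, Cfb, Serping1 and C3 A_52_P133594 lie far above the line, and C8b and Cfd far below it.

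Of 29 further complement genes, 27 had probes, and of the 39 probes tested 1 was higher, 2 were lower and 36 did not pass. This was 2.56% higher and 5.13% lower, beside 5.97% and 6.27% of all probes. Cd46, a membrane cofactor for cutting C3b and C4b, gave 0.56, 0.52, 0.56 and 0.17, with a mean of 0.45 (SD 0.19, n = 4, limma adjusted p = 0.0228). The Cd46 probe was not well above background in both channels of all arrays. With a filter that asked for this, 0 of the further probes were higher. C5ar2, a second receptor of C5a, had a mean of -0.36 (SD 0.12, n = 4, limma adjusted p = 0.0213). Itgam, a chain of complement receptor 3, had -0.37 (SD 0.13, n = 4, limma adjusted p = 0.0223) with 1 probe and -0.01 with the other. Each of these 3 calls was lost without array 1 or array 2, with adjusted p from 0.0544 to 0.0942, and both lower calls also without array 4, with 0.0633 and 0.0655. Without array 3, Cd46 had 0.0582 and C5ar2 had 0.052.

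Markers of the cells a liver sample holds were read in the same fit. The 15 probes of hepatocyte markers were well above background in all channels, with Alb at 0.83 and Ttr at 0.45 higher and 1 probe each of Apob at -0.62 and Hnf4a at -0.25 lower. Of the 16 probes of sinusoidal endothelium, Clec4g at -0.35 and Kdr at -0.24 were lower, and of the 8 of cholangiocytes, Spp1 at -0.63 and Sox9 at -0.62 were lower. Among 10 probes of B cells and T cells, Cd79b was lower at -0.24. None of the 10 stellate cell and 6 neutrophil probes passed under loess. Among all probes, 5.97% were higher and 6.27% lower, and under centring 8.46% and 7.18%. Under centring 6 hepatocyte probes were higher and 1 was lower, and 0 endothelial and 0 stellate cell probes passed. Lower under centring were also 3 cholangiocyte probes, 1 neutrophil probe and 1 of the B cell and T cell probes. The part of these cell types in the complement values was not tested.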

How the data were processed

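The scanner files hold spot intensity values from Agilent Feature Extraction 10.5.1.1, for an array design annotated to mm9, per the file headers. In the table that the authors deposited are log2 ratios per array, p-values and adjusted p-values for 43379 spots. The submitters' processing notes name limma with no version. Recomputing the ratios from the scanner medians by background subtraction and loess gave the deposited ones, with a slope of 1.00 on each array. Agilent's log10 ratio, deposited in the scanner files, served as an alternative.

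Spots of a probe were averaged, and 39080 of 41174 probes were kept, those that 1 dye or the other detected well above background on 3 or more arrays. The mean ratio was tested against 0 with lmFit and eBayes of limma 3.58.1 in R 4.3.3, adjusted with Benjamini-Hochberg. The fit was tested on simulated data. The pairing is the array: each ratio sets 2 samples of 1 array against each other, and array pairs correlated with r from 0.388 to 0.589 across probes, which are not independent. Channel levels follow Aquantile normalization, and a dye bias would remain in them. The number of arrays limits the precision. Alternatives covered background, normalization, filter, moderation, pairing, threshold, probes per gene, the authors' p-values and each array left out. Leaving out outlier-flagged spots was added after seeing the data.

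Members and lists were chosen with earlier results of these data known. Every member is named, with values per array for calls of at least 0.4 in size and for C3, C4b, Cfb, Hc and Cfd. Values per array of other genes, the printed sequences, the patterns and the probe pairs were chosen after their values were seen. Of other lists, calls are named, at most 3 for a list, and all adipocyte markers. The hepatocyte list, with all of its 2 higher and 2 lower calls named, and Lcn2 fall outside this rule. Lcn2 was chosen after its values were seen. Some results on a further gene are not reported here, and its probes are left out of the counts of further genes. Promoter windows are from RefSeq, with 24 of 33 genes matched.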

Additional observations from a re-analysis of the deposited data

Results flagged for a closer look

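The ratio of C3 A_51_P110301 on array 4, -0.8122, lay far below the other 3 arrays, with a gap of 0.903 of the whole range. The ratio of C7 A_51_P407915 on array 1, -0.6255, lay apart from the other 3, with a gap of 0.848 of the range. The ratio of Cd46 A_51_P336169 on array 4, 0.1715, lay below the other 3, with a gap of 0.886 of the range. All 3 gaps passed Dixon's 95% critical value for 4 samples, which chance passes for about 1 in 20 groups, and 47 complement probes and the called probes of further complement genes were examined.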

How the results depend on the processing

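Complement probes higher and lower numbered 3 and 10, but 13 and 6 under median centring and 1 and 6 with Agilent's processed signals. The counts were 0 and 0 without moderation, without the replicate block or at an adjusted p under 0.01. Of all 39080 probes, 4782 were called in the main fit, 6114 under median centring and 1194 with Agilent's processed signals. With a mean over each gene's probes, 1 gene was higher and 7 were lower of 33, beside 2542 called of 26135 genes or probes without a symbol. For the further complement genes, 1 and 2 became 2 and 4 under median centring, 1 and 0 with Agilent's processed signals, 1 and 1 with gene means, and 0 and 0 without moderation, without the replicate block or at 0.01. With a strict filter on dim probes, 0 were higher. With 1 array left out, the complement counts ran from 0 to 2 higher and 0 to 7 lower, and those of the further genes from 0 to 1 and 0 to 2. Under median centring Hc reversed to 0.45, Cfb to 0.49 and Clu to 0.39, all past the threshold. The cause of these moves was not tested, except that a stricter threshold calls fewer by construction. Without moderation limma called 0 of all probes, although 9918 and 13 complement probes had an unadjusted p under 0.05. Without the block, which treats the paired channels as separate samples, it called 9, with 3654 and 12 at an unadjusted p under 0.05. Of the 13 calls, 12 held with normexp, 9 with the authors' deposited adjusted p and 6 with Agilent's processed signals. Over all probes there were 5048 calls with normexp and 3767 with the authors' deposited adjusted p. In the main fit the adjusted p of the 13 calls was between 0.0106 and 0.0488. Dim probes such as C7, C5ar1 and 1 of C3ar1 were well above background on 3 arrays in each channel, which limits what can be read from them.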
